A study of Homo sapiens with 36 samples.

Results

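C4-2B is a human prostate cancer (PCa) cell line of the osteoblastic kind (BPCa), which means that its bone metastases form new bone. It was cultured alone or next to MG63 cells, an osteoblast-like human osteosarcoma line, and the comparison of both cultures addresses which genes of the PCa cells respond to osteoblast-like cells. Its members were the 5 C4-2B libraries without RANKL, chosen by their sample labels from 36 libraries of 4 PCa lines. They comprised 2 MG63 co-cultures and 3 mono-cultures, all harvested on day 5. The co-culture system was horizontal, with a filter between both wells, and RNA was taken from the lysate of the PCa well. A further 2 C4-2B mono-cultures had received RANKL (labelled 50), the cytokine that drives osteoclast formation. They served as a second control, tested in a separate fit, because their depth was close to that of the co-cultures. No MG63 co-culture had received RANKL, and all libraries of this line came from unmodified cells of 1 established line. C4-2 (BPCa), DU145 and 22Rv1 (both lytic-type PCa, LPCa) were cultured in the same manner, each with 3 mono-cultures and 2 MG63 co-cultures.

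Osteoblasts and tumour cells exchange cytokines, growth factors and vesicles in bone metastases. In epithelial cells, inflammatory cytokines act through the transcription factors NF-kB, STAT3 and C/EBP, which together switch on secreted acute-phase proteins such as serum amyloid A, lipocalin 2 and antichymotrypsin. Interferon signals act in part through IRF1 and raise antigen presentation genes. Low oxygen acts through HIF1A and raises glycolytic enzymes, and androgens sustain secretory genes of the luminal prostate cell such as KLK3, which encodes PSA.

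The table gave estimated counts per transcript, which were summed per gene. The total of estimated counts was between 30119803 and 36719047 in mono-cultures, 13998670 and 13716264 in co-cultures and 13233995 and 12096641 in mono-cultures with RANKL. Levels are given as CPM, the counts scaled to the library total, and 3 counts, taken as the limit of detection, equal 0.0996 CPM in the shallowest mono-culture and 0.219 CPM in the shallowest co-culture. Replicate libraries differed by more than sampling noise, with a chi-square per degree of freedom between 5.05 and 5.81. Nothing in the labels says that replicates were separate cultures, so p-values measure the spread between these libraries, which may be technical. The cells matched their label. The 15 luminal prostate markers were all well detected, with a summed level of 9536 to 10040 CPM alone, 7516 to 7761 CPM with MG63 cells and 6588 to 6638 CPM alone with RANKL. MG63 cells are human too, so their RNA would be counted under the same gene names. The 24 mesenchymal and osteoblast-like markers summed to 25.4 to 27.7 CPM alone, 22.6 to 23.6 CPM with MG63 cells and 34.5 CPM alone with RANKL. Of these, 10 were at or under 3 counts in both co-cultures, and the osteoblast collagen COL1A2 was at 0.0539, 0.0748 and 0.0347 CPM alone and at 0.0196 and 0.141 CPM with MG63 cells. In RNA from a whole well, fewer cells of a type and less RNA per cell cannot be told apart.

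Of 13063 genes tested, 498 were higher (3.81%) and 526 lower (4.03%) with MG63 cells at a Benjamini-Hochberg adjusted p under 0.05 (edgeR quasi-likelihood test, n = 2 against 3). A gene is said to have risen or fallen below when it passed this test. The shares of 3.81% and 4.03% are the background for each count of list members below. Changes over 2-fold were found for 97 higher (0.743%) and 74 lower genes (0.566%). Values of the 2 co-cultures did not overlap with those of the 3 mono-cultures in any of these genes. They were called on the same values, so the lack of overlap adds no support. The counts depended on single libraries of the fit. They were 120 higher and 149 lower without replicate 1 of the co-culture, 236 and 255 without replicate 2, 312 and 376 without mono-culture replicate 1, and 321 and 390 without mono-culture replicate 3. The spread was shared with the other lines, and without replicate 2 of DU145 with MG63 cells the counts were 1416 and 1353. Scaling to the library total alone gave 355 higher and 935 lower genes. A gene was tested at 1 CPM or more in at least 2 of the 5 libraries, and 37 of the 97 genes reached 1 CPM in the co-cultures only, so that these had to differ in order to be tested. In the same way, 20 of the 74 genes more than 2-fold lower reached 1 CPM in mono-cultures only.

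Several secreted acute-phase and antimicrobial proteins were higher with MG63 cells. Of the 24 listed genes, 8 were tested and 7 rose. Of these, SERPINA3, LCN2, SAA1, SAA2 and PI3 reached 1 CPM in the co-cultures only, so that each had to be higher there in order to be tested, and the count of the list is no support. SERPINA3, which encodes the serine protease inhibitor antichymotrypsin, lies at chr14:94612377-94624055 (GRCh38, plus strand). Its level was 0.75, 0.847 and 0.324 CPM in mono-cultures and 51.5 and 60.5 CPM in co-cultures, a log2 fold change of 6.50 ± 0.26 (SE, edgeR adjusted p = 8.28e-10). LCN2, lipocalin 2, binds iron-carrying siderophores and lies at chr9:128149071-128153455 on the plus strand. Its level was 0.336, 0 and 0 CPM alone and 37.9 and 33.6 CPM with MG63 cells, a log2 fold change of 8.23 ± 0.49 (edgeR adjusted p = 3.35e-07). Mono-culture replicate 1 held all of the LCN2 counts of the mono-cultures. Both co-cultures were far above all mono-cultures for both genes, and mono-cultures with RANKL stayed low, with 0.54 and 0.338 CPM of SERPINA3 and 0 and 0.324 CPM of LCN2. One LCN2 transcript, ENST00000277480, held 95.8% and 90.3% of the LCN2 counts in the co-cultures, while 2 transcripts, ENST00000393078 and ENST00000393080, shared those of SERPINA3 at 60.0% and 38.1% in replicate 1 and at 68.4% and 29.7% in replicate 2.

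Several of the genes that rose are textbook targets of NF-kB, and their upstream sequences show how the motifs are spread. The 250 bases before the RefSeq start of 6 of them are given 5′ to 3′ on the strand of the gene (RefSeq, GRCh38.p14). Capitals mark matches on either strand to an NF-kB consensus (GGG, a purine, any 2 bases, 2 pyrimidines, CC), to the STAT motif TTCNNNGAA, to the C/EBP motif TTGCNNAA or to an IRF motif (GAAA, any 2 bases, GAAA).
SERPINA3 promoter: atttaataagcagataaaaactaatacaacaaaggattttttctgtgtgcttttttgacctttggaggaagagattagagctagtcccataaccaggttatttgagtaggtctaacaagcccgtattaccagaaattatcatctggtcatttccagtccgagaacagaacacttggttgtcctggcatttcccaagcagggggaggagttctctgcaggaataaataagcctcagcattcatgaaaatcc
LCN2 promoter: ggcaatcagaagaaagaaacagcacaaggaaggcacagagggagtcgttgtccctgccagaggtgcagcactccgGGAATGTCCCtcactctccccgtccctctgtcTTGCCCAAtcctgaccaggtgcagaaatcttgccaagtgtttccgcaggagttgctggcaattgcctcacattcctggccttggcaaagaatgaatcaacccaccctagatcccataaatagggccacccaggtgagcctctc
CFB promoter: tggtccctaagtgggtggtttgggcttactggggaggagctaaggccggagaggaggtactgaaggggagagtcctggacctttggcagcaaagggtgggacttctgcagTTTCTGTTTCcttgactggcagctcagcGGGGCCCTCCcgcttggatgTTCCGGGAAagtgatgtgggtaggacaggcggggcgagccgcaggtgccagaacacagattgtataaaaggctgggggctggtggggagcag
CCL20 promoter: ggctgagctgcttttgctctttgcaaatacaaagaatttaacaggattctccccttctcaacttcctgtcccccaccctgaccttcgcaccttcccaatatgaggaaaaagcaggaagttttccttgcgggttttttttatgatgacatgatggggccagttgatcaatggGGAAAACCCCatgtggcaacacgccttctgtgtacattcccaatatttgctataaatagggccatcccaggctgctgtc
TNFAIP3 promoter: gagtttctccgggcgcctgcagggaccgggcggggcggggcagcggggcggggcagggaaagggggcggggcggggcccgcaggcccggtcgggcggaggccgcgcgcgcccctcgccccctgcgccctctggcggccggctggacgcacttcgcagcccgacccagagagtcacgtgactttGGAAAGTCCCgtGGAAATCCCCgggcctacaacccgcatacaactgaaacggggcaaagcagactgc
IRF1 promoter: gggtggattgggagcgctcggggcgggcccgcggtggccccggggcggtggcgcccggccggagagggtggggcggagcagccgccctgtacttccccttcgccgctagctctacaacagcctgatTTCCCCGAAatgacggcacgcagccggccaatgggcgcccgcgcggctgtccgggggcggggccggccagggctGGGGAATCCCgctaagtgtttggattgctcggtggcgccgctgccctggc
These windows are chr14:94612141-94612390, chr9:128149203-128149452, chr6:31945845-31946094, chr2:227813592-227813841, chr6:137867009-137867258 and chr5:132490774-132491023, of which the last lies on the minus strand. LCN2 had an NF-kB match 175 to 166 bases before the start and a C/EBP match at 143 to 136. CFB had an NF-kB match at 112 to 103, a STAT match at 92 to 84 and an IRF match at 140 to 131. CCL20 had 1 NF-kB match, TNFAIP3 had 2 that do not overlap, and IRF1 had 1 together with a STAT match. None of the 4 motifs was in the window of SERPINA3. Among all 35116 promoters in the table, 9.96% held the NF-kB motif, 6.57% the STAT motif, 9.05% the C/EBP motif and 3.02% the IRF motif. Counted per gene over the tested genes in the table, these shares were 15.4%, 7.64%, 8.45% and 3.15%. The NF-kB motif was in 24.2% of genes more than 2-fold higher and in 11.1% of those more than 2-fold lower. The 6 printed genes were picked by name, so their matches do not stand for the genes that rose. A match is a description of letters and does not show binding. SAA1, SAA2 and PI3 were not in the table.

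Serum amyloid A genes rose from near 0. SAA1 had no count in any mono-culture and was at 8.55 and 9.43 CPM in co-cultures, at least 90.2-fold higher when the floor of 3 counts in the shallowest mono-culture is used. SAA2 was at 0.253, 0.276 and 0.218 CPM alone and at 8.47 and 8.66 CPM with MG63 cells (log2 fold change 5.19 ± 0.35, edgeR adjusted p = 3.22e-07). Both genes are near-identical and can share reads, and their sum was 0.218 to 0.276 CPM alone and 17.0 and 18.1 CPM in co-culture. PI3, the elastase inhibitor elafin, had 3 counts in all mono-cultures together and 131 in both co-cultures, a ratio of 157 after scaling to depth (95% exact interval of the counts 52.7 to 773). PLA2G2A, a secreted phospholipase, was at 1.37, 0.845 and 1.26 CPM alone and at 6.27 and 5.06 CPM with MG63 cells (edgeR adjusted p = 0.0146). SLPI, an antiprotease of mucosal surfaces, was already well expressed and increased from 75.7 ± 1.45 CPM (SD, n = 3) to 171 ± 9.83 CPM (n = 2). In mono-cultures with RANKL SLPI was nearly as high, at 154 and 150 CPM, and co-cultures did not pass against these (0.13 ± 0.31, edgeR adjusted p = 0.933). HP, haptoglobin, did not pass (log2 fold change -0.35 ± 0.41).

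**Figure D1:**
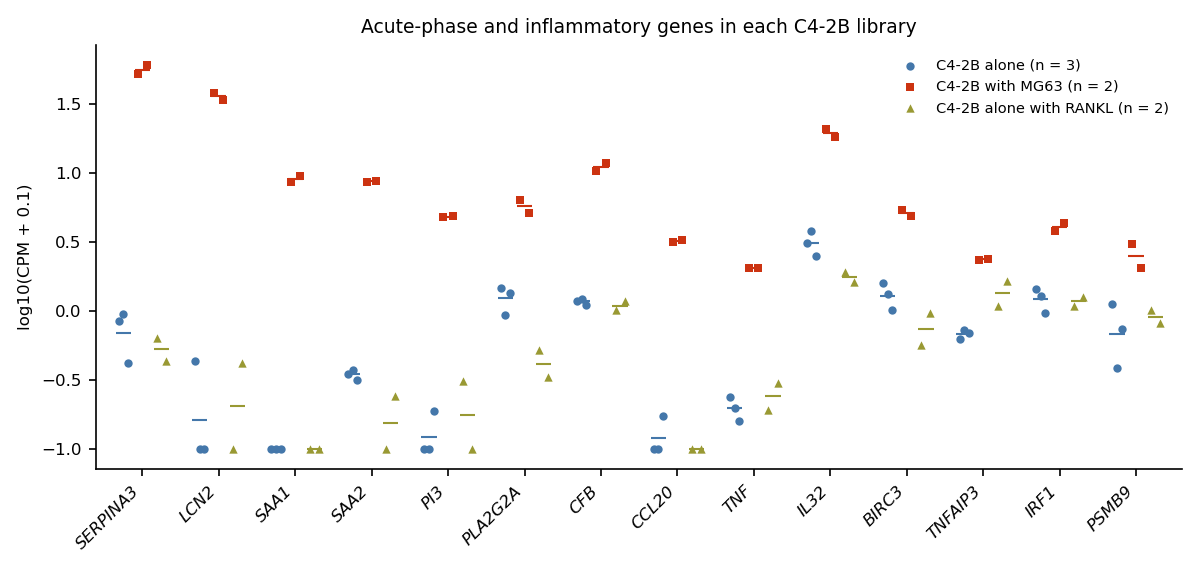
Level of 14 acute-phase and inflammatory genes in each C4-2B library as log10(CPM + 0.1), with 3 mono-cultures (circles), 2 MG63 co-cultures (squares) and 2 mono-cultures with RANKL (triangles), and a line at each mean. Both squares lie above all circles for every gene, as in each gene called higher. Levels in co-culture run from SERPINA3 at 51.5 and 60.5 CPM down to TNF at 1.96 and 1.94 CPM, and points at -1 are libraries without a count.

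Among the 13 tested genes of the complement list, 3 rose (3.81% of all genes). CFB, the factor B of the alternative pathway, increased from 1.08 ± 0.0595 CPM to 11.0 ± 1.02 CPM, with 10.3 and 11.7 CPM in the co-cultures (log2 fold change 3.40 ± 0.24, edgeR adjusted p = 3.35e-07). CD55 and CD59, which protect cells from complement, rose by 0.40 and 0.34 on the log2 scale. With mono-cultures with RANKL as control, CD59, at 54.4 and 63.6 CPM there, turned to -0.06 ± 0.12 (edgeR adjusted p = 0.912). C3 did not pass (log2 fold change -0.35). PIGR, the receptor that carries secretory IgA through epithelia, and LRG1, another acute-phase protein, rose by 2.55 and 2.13 on the log2 scale and were chosen for mention after their values were seen. PIGR reached 1 CPM in the co-cultures only, so that it had to be higher there in order to be tested.

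Some cytokines and 1 tested chemokine rose. Only 2 of 18 chemokines were expressed highly enough to be tested, and CCL20 was 1 of them. CCL20, which attracts CCR6-bearing immune cells, was at 0, 0 and 0.0757 CPM alone and at 3.04 and 3.18 CPM with MG63 cells. These are 3 counts against 86, a ratio of 103 (95% exact interval 34.2 to 511). Of 16 tested ligands and receptors of the IL-1, TNF and IL-17 families, 6 rose and 1 fell (3.81% and 4.03% of all genes). TNF was at 0.14, 0.0992 and 0.0615 CPM alone and at 1.96 and 1.94 CPM with MG63 cells (log2 fold change 4.28 ± 0.69, edgeR adjusted p = 0.00125). TNF, CCL20, TNFAIP3, UBD and FOS reached 1 CPM in the co-cultures only, so that each had to be higher there in order to be tested, and its call in the list counts is no support. IL32, an intracellular inflammatory cytokine, increased from 2.42 to 3.68 CPM in mono-cultures to 20.6 and 18.0 CPM (log2 fold change 2.74 ± 0.37). TNFSF10, the death ligand TRAIL, IRAK2, a kinase of the IL-1 receptor complex, and IL1RN, the natural antagonist of that receptor, rose by 1.57, 1.15 and 1.14 on the log2 scale. None of these 3 passed against mono-cultures with RANKL (0.16, 0.84 and 0.32, edgeR adjusted p = 0.908, 0.0853 and 0.812), where 2 of the 16 list members were higher. The death receptor TNFRSF10B fell by 0.28. Transcripts of the inducing cytokines IL6, IL1A and IL1B stayed at or near the limit of detection in C4-2B cells, with 0 CPM of IL6 in every library and at most 0.258 CPM of IL1B in co-culture. CXCL8 was not tested and was at 0.619 and 0.635 CPM in co-cultures and at most 0.0302 CPM alone.

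Part of the NF-kB pathway itself rose. Of 22 tested, 7 rose (3.81% of all genes), 15 did not pass and none of the list fell. The median log2 fold change was 0.23 against -0.0003 over all genes tested. The largest were BIRC3, an inhibitor of apoptosis, at 1.49, 1.22 and 0.925 CPM alone and 5.29 and 4.78 CPM in co-culture (log2 fold change 2.10 ± 0.23, edgeR adjusted p = 5.8e-05), and TNFAIP3, the feedback inhibitor A20, at 0.527, 0.631 and 0.59 CPM alone and 2.26 and 2.30 CPM in co-culture. MAP3K8, a kinase downstream of TNF, rose by 1.08 ± 0.19. The co-activator BCL3, the adaptor TRAF3 and the subunits NFKB2 and NFKB1 rose by 0.71, 0.48, 0.43 and 0.33. RELA (-0.02) and the inhibitor NFKBIA (0.22 ± 0.08, edgeR adjusted p = 0.125) did not pass. ICAM1, an adhesion molecule outside the list that was named after its values were seen, rose by 1.16 ± 0.11.

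In the IL-6, JAK and STAT3 list, 5 of 22 tested genes rose and 1 fell (3.81% and 4.03% of all genes). The 1 fall was near the share of all genes. CEBPD, a C/EBP factor of the acute-phase response, was at 11.5, 12.1 and 10.8 CPM alone and at 23.5 and 24.2 CPM with MG63 cells (log2 fold change 1.12 ± 0.10, edgeR adjusted p = 1.08e-05). JUNB, CEBPB, STAT3 and BCL6 rose by 0.81, 0.67, 0.40 and 0.35 on the log2 scale. Against mono-cultures with RANKL, CEBPD and BCL6 were higher (0.61 and 0.52, edgeR adjusted p = 0.0381 and 0.0169), and JUNB, CEBPB and STAT3 did not pass (0.39, 0.52 and 0.10, edgeR adjusted p = 0.0544, 0.35 and 0.752). The member that fell was IL11, a cytokine of the IL-6 family, at 2.15, 2.71 and 2.34 CPM alone and at 0.415 and 0.832 CPM in co-culture. It reached 1 CPM in mono-cultures only and did not pass against mono-cultures with RANKL, at 1.23 and 1.6 CPM (-1.20 ± 0.51, edgeR adjusted p = 0.309).

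Interferon-stimulated genes were affected as well. Of 30 tested, 10 rose (3.81% of all genes) and none fell, and the median log2 fold change was 0.48. IRF1, the interferon regulatory factor that many cytokines induce, was at 1.33, 1.2 and 0.863 CPM alone and at 3.70 and 4.27 CPM with MG63 cells (log2 fold change 1.87 ± 0.21, edgeR adjusted p = 6.11e-05). UBD, a ubiquitin-like protein induced by TNF and interferon, was not detected in mono-cultures and reached 2.01 and 2.28 CPM in co-cultures, at least 21.5-fold higher. PARP14, IFI35 and IFI6 rose by 0.88, 1.02 and 0.73. OAS3, IFITM2, IFITM3, PARP9 and DTX3L rose by 0.58, 0.61, 0.42, 0.48 and 0.48, and MX1 (-0.04) and IFIT1 (0.06) were among the 20 members that did not pass. In antigen presentation by MHC class I, 6 of 21 tested genes rose and 1 fell (3.81% and 4.03% of all genes). The immunoproteasome subunits PSMB9 and PSMB8 rose by 1.92 and 1.61, the peptide transporter TAP1 by 0.69, and the light chain B2M from 384 ± 8.53 to 525 ± 5.78 CPM. Against mono-cultures with RANKL, 1 of the 21 was higher, and B2M, at 492 and 494 CPM there, did not pass (0.05 ± 0.10, edgeR adjusted p = 0.919).

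Against plain mono-cultures, many glycolysis and hypoxia-response genes fell. Of 36 tested, 23 fell and 1 rose (4.03% and 3.81% of all genes), and the median log2 fold change was -0.65. Against mono-cultures with RANKL, 2 were lower and 4 higher, and the median was -0.01. NDRG1, a stress-induced gene of low oxygen and androgen, was at 213, 277 and 267 CPM alone and at 62.5 and 77.8 CPM with MG63 cells (log2 fold change -1.79 ± 0.15, edgeR adjusted p = 4.24e-06). BNIP3, which drives removal of mitochondria, was at 540, 806 and 708 CPM alone and at 217 and 254 CPM in co-culture. LDHA, lactate dehydrogenase, was at 1498, 1924 and 1739 CPM alone and at 793 and 841 CPM in co-culture (log2 fold change -1.01 ± 0.11, edgeR adjusted p = 3.77e-05). Mono-culture replicate 1 was the lowest of the 3 mono-cultures for all of these genes and was still above both co-cultures. PFKFB4 and ALDOC of glycolysis and the oxygen sensor EGLN3 fell by 1.28, 1.08 and 1.14 on the log2 scale, and PGK1 by 0.92. VEGFA, the angiogenic factor, fell from 139 ± 13.6 to 80.8 ± 5.71 CPM. The factor HIF1A itself did not pass (0.03 ± 0.12), and CA12, a carbonic anhydrase, rose by 0.50.

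Some androgen-regulated prostate genes fell against plain mono-cultures. Of 28 tested, 12 fell (4.03% of all genes), 1, PLPP1, rose and 15 did not pass, with a median log2 fold change of -0.36. SLC45A3, prostein, was at 88.3, 98.2 and 98.1 CPM alone and at 46.6 and 49.5 CPM with MG63 cells (log2 fold change -0.92 ± 0.09, edgeR adjusted p = 1.99e-05). The kallikreins KLK2 and KLK3 fell by 0.51 and 0.37 and the protease TMPRSS2 by 0.53. MAF fell by 1.73 from a low level of 3.64 to 4.60 CPM. NDRG1 is a member of this list as well as of the hypoxia list. In cholesterol and fatty acid synthesis, 14 of 35 tested genes fell and 1 rose (4.03% and 3.81% of all genes). ACSL3, which activates fatty acids, fell from 303 ± 18.6 to 164 ± 6.85 CPM (log2 fold change -0.82 ± 0.09, edgeR adjusted p = 4.13e-05). The sterol sensor INSIG1 and the desaturase SCD fell by 0.90 and 0.77, while the elongase ELOVL6 rose by 0.78.

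Mono-cultures with RANKL gave a second set of controls of similar depth for the same 2 co-cultures. Against them, 228 genes were higher (1.75%) and 144 lower (1.1%) in co-culture. These shares are the background for each count of list members against this control. Since both comparisons share the co-cultures, their values are only given side by side. The leading inflammatory genes were higher in co-culture against either control. SERPINA3 changed by 6.50 ± 0.26 against mono-cultures and by 6.94 ± 0.40 against those with RANKL (edgeR adjusted p = 3.84e-06), LCN2 by 8.23 ± 0.49 and 7.69 ± 0.54, CFB by 3.40 ± 0.24 and 3.42 ± 0.32, BIRC3 by 2.10 ± 0.23 and 2.85 ± 0.23, and IRF1 by 1.87 ± 0.21 and 1.86 ± 0.25. In the NF-kB list 3 of 22 and among interferon-stimulated genes 4 of 30 were higher, and none was lower.

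Most falls in hypoxia and androgen genes were not seen with the RANKL mono-cultures as control. BNIP3 was at 197 and 202 CPM in mono-cultures with RANKL, below both co-cultures. LDHA was at 883 and 852 CPM and P4HA1 at 54.4 and 55.7 CPM, near the co-cultures. VEGFA, at 50.2 and 51.3 CPM, was lower in mono-cultures with RANKL than with MG63 cells (log2 difference of co-cultures 0.63 ± 0.10, edgeR adjusted p = 0.00683). NDRG1 was an exception, at 138 and 138 CPM, which lay between both other groups (log2 difference -1.02 ± 0.11, edgeR adjusted p = 0.000481). Of the 28 androgen-regulated genes, 3 were lower and 1 higher, and KLK2 was higher in co-culture than in mono-cultures with RANKL (0.39 ± 0.08). Of the 35 lipid genes 2 were lower, ACSL3 among them (-0.60 ± 0.10, edgeR adjusted p = 0.00654). The median log2 fold change of the lipid genes was -0.26 against this control and -0.27 against plain mono-cultures. Mono-cultures without RANKL were thus the high group for many of the hypoxia and androgen genes, and they were also the deepest libraries. With mono-cultures thinned to the depth of the co-cultures, 416 genes were lower, 73 of them more than 2-fold. In that fit BNIP3 (-1.47), P4HA1 (-0.78), VEGFA (-0.71) and KLK2 (-0.51) passed as lower, and the cause was not tested. RANKL and the handling of these cultures cannot be told apart here.

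**Figure D2:**
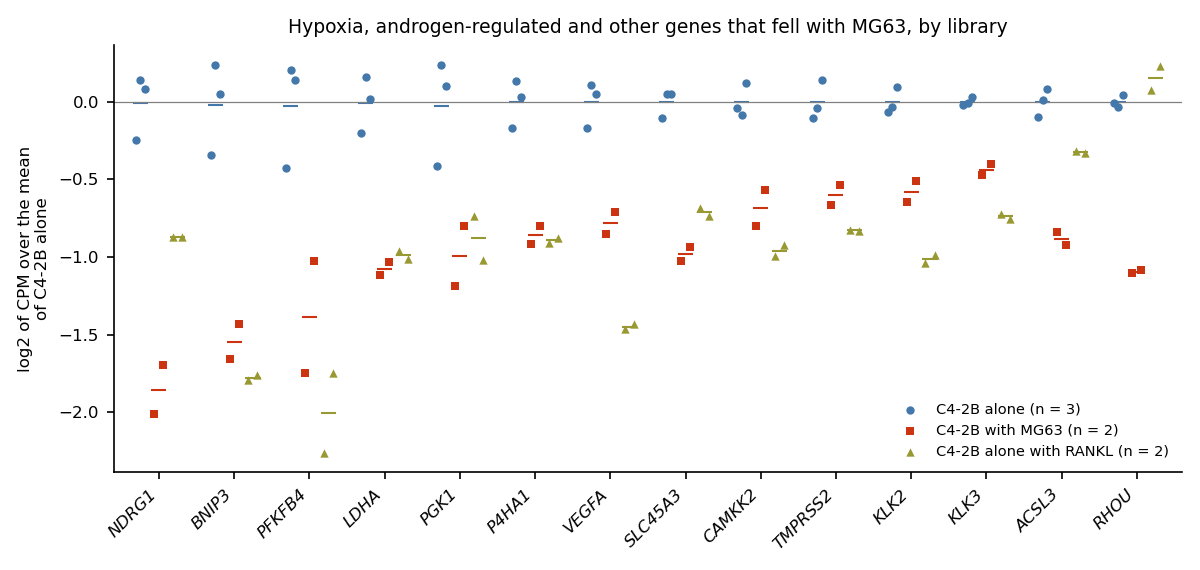
Level of 14 genes that fell with MG63 cells, as log2 of the CPM over the mean of the 3 mono-cultures, in mono-cultures (circles), MG63 co-cultures (squares) and mono-cultures with RANKL (triangles), with a line at each mean. For BNIP3 the triangles lie below both squares and for P4HA1 between them, whereas for NDRG1, ACSL3 and RHOU they lie above both squares.

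A few falls held with either control. RHOU, a small GTPase of the cytoskeleton, was at 50.9, 49.98 and 52.9 CPM alone, at 54.0 and 60.0 CPM alone with RANKL and at 23.8 and 24.1 CPM with MG63 cells (log2 fold change -1.03 ± 0.07 and -1.29 ± 0.11). TXNIP, which binds thioredoxin and limits glucose uptake, was at 42.8, 42.9 and 46.4 CPM alone, at 44.3 and 42.5 CPM alone with RANKL and at 19.0 and 18.6 CPM in co-culture (log2 fold change -1.16 ± 0.10 and -1.25 ± 0.12). SMS, spermine synthase, fell from 383 ± 15 to 226 ± 1.55 CPM and was at 309 and 319 CPM alone with RANKL. TXNIP was chosen after its values were seen.

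Factors that act on bone changed in both directions. FGF23, the bone hormone that lowers blood phosphate, was at 3.57, 4.41 and 3.45 CPM alone and at 40.5 and 47.3 CPM with MG63 cells (log2 fold change 3.59 ± 0.25, edgeR adjusted p = 3.22e-07). It was almost as high alone with RANKL, at 32.0 and 36.1 CPM, and co-cultures did not pass against these (0.32 ± 0.28, edgeR adjusted p = 0.706). CSF1, the growth factor of macrophages and osteoclast precursors, was at 1.01, 1.1 and 1.15 CPM alone, at 0.616 and 0.763 CPM alone with RANKL and at 3.14 and 4.36 CPM in co-culture (log2 fold change 1.85 ± 0.22, edgeR adjusted p = 0.000109). It was named after its values were seen. BMP7, an inducer of bone formation, rose from 9.30 ± 0.565 to 16.4 ± 0.906 CPM. Of 7 tested osteoblastic factors named for prostate cancer, 4 fell and 1 rose (4.03% and 3.81% of all genes). IGF1 fell from 38.5 ± 3.49 to 25.1 ± 0.743 CPM, and IGFBP3, which binds it, rose by 0.44 ± 0.08, although it was higher still alone with RANKL, at 204 and 216 CPM. ERBB3, VEGFA and KLK3 were the other members that fell against plain mono-cultures.

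Genes of bone matrix and osteomimicry, the bone-like expression of metastatic PCa cells, passed in 2 cases. This was 1 in each direction, beside 3.81% higher and 4.03% lower among all genes. Of 14 tested, FN1, fibronectin, rose from 884 ± 34.0 to 1546 ± 16.3 CPM (log2 fold change 0.87 ± 0.08, edgeR adjusted p = 1.58e-05) and LOX, the collagen cross-linking enzyme, fell by 1.31 ± 0.28. LOX was also low alone with RANKL, at 1.55 and 1.67 CPM, and did not pass against that control (-0.32 ± 0.32, edgeR adjusted p = 0.769). The osteoblast factor RUNX2 was at 3.32 to 3.65 CPM alone and at 5.33 and 4.35 CPM in co-culture and did not pass (edgeR adjusted p = 0.181). COL5A1 was at 3.48, 3.92 and 3.58 CPM alone and at 6.75 and 6.88 CPM in co-culture, which did not pass either (0.95 ± 0.31, edgeR adjusted p = 0.0833). In the TGF-beta and BMP list 2 of 23 tested genes rose and 2 fell (3.81% and 4.03% of all genes). None of 15 WNT genes and none of 12 proteases and their inhibitors passed the edgeR test in either direction, while 3 and 2 of them had an unadjusted p under 0.05. At that threshold, 1366 of all 13063 genes were higher and 1475 lower. RANKL itself, TNFSF11, was at most 0.102 CPM in mono-cultures and 0.0791 CPM in co-cultures, which is at or near the floor, and its receptor TNFRSF11A was at 1.24 to 1.5 CPM and at 1.75 and 1.80 CPM.

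In proliferation genes the share that rose was near the 3.81% of all genes. Of 40 cell cycle and DNA replication genes, CDT1 and MYBL2 rose by 0.51 and 0.34, none fell, and the median log2 fold change was 0.00. None of the 40 passed against mono-cultures with RANKL, with CDT1 at 0.10 ± 0.11 and MYBL2 at -0.01 ± 0.11 (edgeR adjusted p = 0.806 and 0.978). None of the 13 mitochondrially encoded respiratory chain genes passed the edgeR test, and 0 had an unadjusted p under 0.05. Of 21 tested targets of NRF2, ferritins and metallothioneins, 7 rose (3.81% of all genes). FTH1, the heavy chain of ferritin, increased from 2599 ± 52.1 to 3926 ± 43.6 CPM, MT2A, a metal-binding protein, from 190 ± 3.37 to 347 ± 21.1 CPM, and SOD2, the mitochondrial superoxide dismutase, from 30.5 ± 1.38 to 46.9 ± 5.82 CPM. Against mono-cultures with RANKL, 2 of the 21 were higher. SOD2 passed there (0.68 ± 0.09, edgeR adjusted p = 0.00242), and FTH1, at 3200 and 3062 CPM alone with RANKL, and MT2A did not (0.29 ± 0.11 and 0.60 ± 0.17, edgeR adjusted p = 0.228 and 0.0872). Of 35 genes of unfolded protein and ATF4 stress, 5 fell and 1 rose (4.03% and 3.81% of all genes). GDF15, a stress-induced cytokine, was at 303, 415 and 413 CPM alone and at 208 and 245 CPM in co-culture. It was lower still alone with RANKL, at 149 and 165 CPM, so that its log2 fold change against these was 0.49 ± 0.14, which did not pass (edgeR adjusted p = 0.106). Against mono-cultures with RANKL, 7 genes of this list were higher and none lower. Among 16 immediate early genes 3 rose and 2 fell (3.81% and 4.03% of all genes). FOS was at 0.472, 0.759 and 0.524 CPM alone and at 1.91 and 1.54 CPM with MG63 cells.

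**Figure D3:**
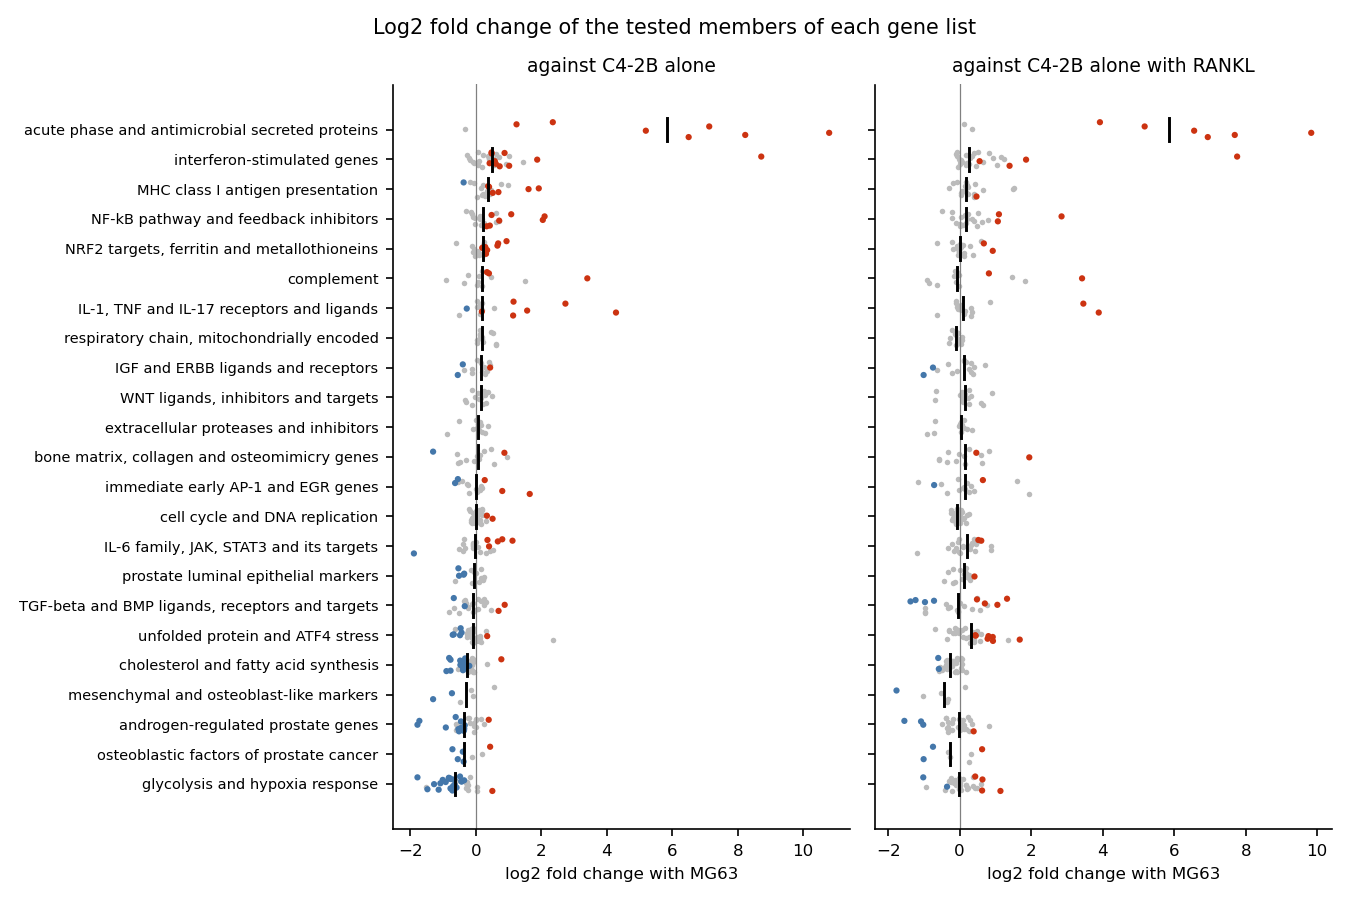
Log2 fold change with MG63 cells of each tested member of 23 gene lists, against C4-2B alone (left) and against C4-2B alone with RANKL (right). Red and blue points passed the test as higher or lower, grey points did not, and the bar is the median, which for glycolysis and hypoxia was -0.65 on the left and -0.01 on the right.

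The 15 largest rises of protein-coding genes included some outside these groups. PSG2, a pregnancy-specific glycoprotein, was at 0.389, 0.12 and 0.201 CPM alone and at 4.53 and 4.67 CPM in co-culture, and PIP, prolactin-induced protein, was at 0.236 to 0.44 CPM and at 2.60 and 2.87 CPM. Both were also high alone with RANKL, at 3.56 and 3.34 CPM for PSG2 and at 3.14 and 2.28 CPM for PIP. EPGN, an EGF receptor ligand, was at 0.208, 0.831 and 0.52 CPM alone, at 2.65 and 2.43 CPM alone with RANKL and at 6.27 and 5.71 CPM in co-culture. PLAAT4 rose by 3.0 ± 0.59. KIF24 was near 0 alone and at 6.0 and 1.33 CPM in co-culture, so that replicate 1 carried most of its rise. PSG2, PIP, EPGN, PLAAT4 and KIF24 reached 1 CPM in the co-cultures only among the 5 libraries tested, so that each had to be higher there in order to be tested. Among the largest falls, SLC2A14 was at 3.98, 3.77 and 3.66 CPM alone and at 0 in both co-cultures, at least 17.4-fold lower. It shares sequence with the glucose transporter SLC2A3, and the sum of both was 5.86, 6.07 and 6.39 CPM alone, 0.894 and 0.597 CPM in co-culture and 2.01 and 3.88 CPM alone with RANKL. PPFIA4 fell from 17.0 to 24.5 CPM to 3.11 and 4.55 CPM and was as low alone with RANKL, at 3.77 and 2.58 CPM. H2BC7, at least 5.31-fold lower, and RPL10 and PTGES3L-AARSD1, which fell by 2.63 and 2.07, have near-identical copies or a readthrough with a neighbour, so that the split of their reads is uncertain. The others, C11orf94, FOXH1, HTR5A, KRT73, SPRED3, LRRK1, ASB2, PTPRN, PLA2G4D and HS3ST2, had means under 5 CPM in mono-cultures. All of these but PLA2G4D, and SLC2A14, H2BC7 and PTGES3L-AARSD1 as well, reached 1 CPM in mono-cultures only. Of the genes known from earlier results of these data, CCL2 and CXCL10, both chemokines, and TDO2 and CNTN5 stayed under 1 CPM in all but 1 library value and were not tested. CCL2 was at 0 alone and at 0.948 and 0.486 CPM in co-culture, CXCL10 at 0 alone and at 0.799 and 0.922 CPM in co-culture, TDO2 at 0.0805, 0.0177 and 0 CPM alone and at 0.482 and 1.1 CPM in co-culture, and CNTN5 at 0.0928, 0.0684 and 0.471 CPM alone and at 0.693 and 0.514 CPM in co-culture.

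The response of C4-2B cells was compared with that of each other line by a test of the difference between both changes. It differed from that of C4-2, the line from which C4-2B was derived, in 25 of 13063 genes (0.191%), from that of DU145 in 1128 (8.64%) and from that of 22Rv1 in 693 (5.31%). With mono-cultures with RANKL as controls in every line, these counts were 204, 1061 and 443. The count against C4-2 was 79 with DESeq2 and 0 on scaled TPM (634 at an unadjusted edgeR p under 0.05). Plain mono-cultures were deeper than co-cultures in every line. The counts and their order depended on single libraries. Without replicate 2 of DU145 with MG63 cells they were 115, 825 and 2223, and without co-culture replicate 1 of C4-2B they were 2, 397 and 385. Among the genes described above as inflammatory, NFKBIA was 1 of the 25, with a change of 0.22 in C4-2B and 0.92 in C4-2 (difference -0.71 ± 0.12, edgeR adjusted p = 0.0217). SERPINA3 rose by 6.96 ± 0.25 in C4-2 cells, to 142 and 102 CPM, and the difference to C4-2B was -0.46 ± 0.43. In DU145 it was at most 0.331 CPM and in 22Rv1 at most 0.171 CPM in any library, and the differences in change of 4.91 ± 1.81 and 4.60 ± 1.72 did not pass (edgeR adjusted p = 0.0916 and 0.149). LCN2 rose in C4-2 to 27.8 and 26.2 CPM and in DU145 from 0.426 to 0.743 CPM to 9.75 and 5.84 CPM, and the change in C4-2B exceeded that in DU145 by 4.47 ± 0.79 (edgeR adjusted p = 0.00526). SAA2 also rose in DU145, from 1.45 to 2.23 CPM to 13.8 and 17.0 CPM, and not in 22Rv1 (-0.80 ± 0.51). CFB and SHROOM1 rose in the BPCa lines by 3.40 and 4.09 and by 1.56 and 1.49, and their changes differed from DU145 by 3.27 ± 0.33 and 1.34 ± 0.15 and from 22Rv1 by 3.30 ± 0.43 and 1.72 ± 0.15. IRF1 also rose more in C4-2B than in DU145 and 22Rv1, by 1.45 ± 0.25 and 2.09 ± 0.32, and so did BIRC3, by 1.62 ± 0.27 and 2.16 ± 0.38 (all of these differences passed). SHROOM1 was chosen after its values were seen.

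Other genes rose in all 4 lines or differed between lines. FGF23 rose in all 4 lines, by 3.59 in C4-2B, 3.53 in C4-2, 3.66 in DU145 and 2.98 in 22Rv1, and CEBPD by 1.12, 1.26, 1.22 and 1.08. These values are against plain mono-cultures, and the falls of most hypoxia genes and of KLK3 in C4-2B depended on that control. In C4-2, 14 of the 36 tested hypoxia genes fell and 2 rose (4.72% and 5.7% of all genes). The change in C4-2B was lower than in DU145 for 23 of the 36 genes (4.25% of all genes). BNIP3 fell in C4-2 by 0.97 ± 0.18 and rose in DU145 by 0.59 ± 0.17, and LDHA fell in C4-2 by 0.60 ± 0.11. KLK3 fell in C4-2B but rose in 22Rv1 by 0.98 ± 0.09, a difference of -1.35 ± 0.12 (edgeR adjusted p = 1.09e-05). In C4-2B alone with RANKL KLK3 was at 3286 and 3204 CPM, and the log2 fold change against these was 0.26 ± 0.11, which did not pass (edgeR adjusted p = 0.315). Of the 25 genes that differed from C4-2, SOX9, a transcription factor of cartilage and prostate, rose in both, by 0.33 ± 0.08 in C4-2B and by 1.29 ± 0.08 in C4-2. S100P, a calcium-binding protein, rose by 0.60 ± 0.15 in C4-2B and fell by 1.03 ± 0.16 in C4-2.

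**Figure D4:**
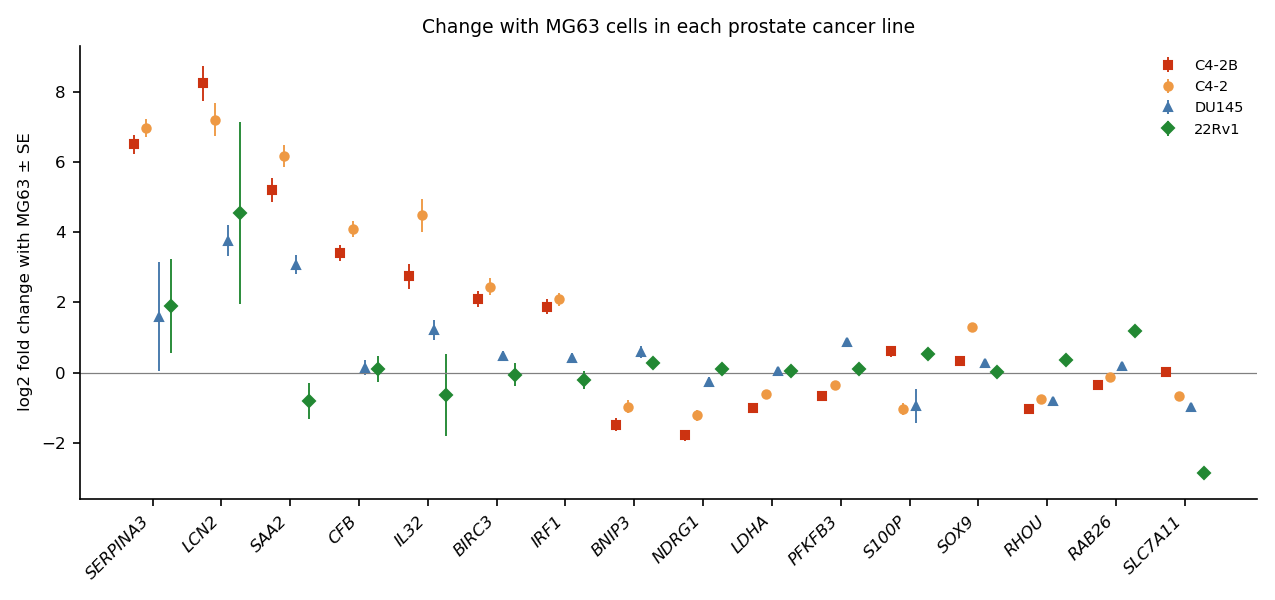
Log2 fold change with MG63 cells and its SE for 16 genes in C4-2B (squares), C4-2 (circles), DU145 (triangles) and 22Rv1 (diamonds), each from 2 co-cultures and 3 mono-cultures. C4-2B and C4-2 both lie above DU145 and 22Rv1 for CFB, BIRC3 and IRF1, and S100P is at 0.60 in C4-2B and at -1.03 in C4-2.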

How the data were processed

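RNA of 36 cultures of 4 PCa cell lines was sequenced. This report uses 5 C4-2B libraries, 2 C4-2B mono-cultures with RANKL and 15 libraries of C4-2, DU145 and 22Rv1. The mono-cultures with RANKL of the other lines entered only the fit with RANKL controls. Per the labels and methods, the authors quantified reads with kallisto and deposited estimated counts per transcript without normalization across samples. The submitters' processing notes also name FastQC and hg19. Of the values above 0, 0.588% were whole numbers (tolerance 1e-06). A later gene-level step that gives scaled TPM was not part of the deposited values. Some transcripts were repeated over 2491 lines with the same values on each, and 1 line of each was kept, which left 159837 transcripts. They were summed by symbol to 27851 genes, and the 6878 transcripts without a symbol (0.703% to 0.734% of counts in the 5 libraries) stayed in the library totals only.

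Sums were rounded and tested with edgeR 4.0.16 (TMM, quasi-likelihood) in R 4.3.3 over 20 libraries without RANKL, with 1 mean per line and culture. Genes at 1 CPM or more in at least 2 of the 5 C4-2B libraries were kept (13063). Thresholds were an adjusted p of 0.05 and, where stated, 2-fold. Differences between lines were contrasts of the same fit. In a separate fit, mono-cultures with RANKL replaced the plain mono-cultures of all 4 lines, and the spread was shared over these libraries. Coordinates came from GENCODE 29 (GRCh38), which held 95.4% of the transcripts, and promoters from RefSeq (GRCh38.p14). The paper's own thresholds of fold and unadjusted p were tried as an alternative. The fit was tested on simulated data. DESeq2 1.42.0 served as an alternative. Tables and figures were made in Python 3.11.15 with pandas 2.3.3, numpy 2.4.6, scipy 1.17.1 and matplotlib 3.10.9.

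Members and the 24 gene lists were chosen with earlier results of these data known, and no list supports its own direction. Named genes were the 15 largest rises and 15 largest falls over 2-fold among protein-coding genes without overlap, up to 4 genes per list with the smallest p that passed, SERPINA3 and LCN2, which the study names, CCL2, UBD, TDO2, CXCL10, CNTN5 and COL5A1, which earlier results of these data name, defining markers, and up to 5 genes per difference between lines. A total of 16 alternatives were planned and 1 was added after seeing the data. Samples were treated as unpaired, with a replicate block as an alternative. Deviations of same-numbered C4-2B libraries correlated at -0.0336 and -0.0753. With 2 co-cultures the deviations from their mean mirror each other, so these values cannot show whether equal numbers paired the samples. ACACA, ISG15, MAP3K14 and PART1 were not analysed here, and some single genes are not reported here. Intervals on counts cover counting error only.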

Additional observations from a re-analysis of the deposited data

Results flagged for a closer look

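Several genes stood out because the change with MG63 cells in C4-2B cells differed from that in another line by a test of the difference itself (edgeR, adjusted over 13063 genes), and the 5 with the smallest p per line are given as the change in C4-2B minus that in the other line on the log2 scale. Against C4-2, the differences were -0.96 ± 0.12 (SE) for SOX9, 1.63 ± 0.22 for S100P, -0.79 ± 0.11 for HMOX1, 0.89 ± 0.13 for PCK2 and -1.33 ± 0.19 for RGS2. HMOX1, heme oxygenase, and RGS2, a regulator of G protein signalling, did not pass in C4-2B (-0.02 and 0.04) and rose in C4-2 by 0.77 and 1.38. With RANKL mono-cultures as control, the difference of HMOX1 was 0.21 (edgeR adjusted p = 0.802). The number of genes that differed from C4-2 was 25 with all libraries and 2 without co-culture replicate 1 of C4-2B.

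Against DU145, they were -1.03 ± 0.09 for MARCKSL1, -1.52 ± 0.14 for PFKFB3, a glycolytic regulator, -1.07 ± 0.10 for FAM162A, -0.83 ± 0.08 for SMS and 3.27 ± 0.33 for CFB. MARCKSL1, PFKFB3 and FAM162A fell in C4-2B by 0.45, 0.65 and 0.51 and rose in DU145 by 0.58, 0.87 and 0.56. With RANKL mono-cultures as control, the difference of FAM162A was 0.043 (edgeR adjusted p = 0.849).

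Against 22Rv1, they were -1.55 ± 0.09 for RAB26, 2.88 ± 0.18 for SLC7A11, the cystine transporter, -1.38 ± 0.09 for RHOU, 1.92 ± 0.14 for PTGFR and 1.3 ± 0.10 for ASNS, asparagine synthetase. SLC7A11, PTGFR and ASNS fell in 22Rv1 by 2.86, 2.00 and 1.21 and did not pass in C4-2B against plain mono-cultures. With RANKL mono-cultures as control, ASNS was higher in C4-2B co-cultures (0.93 ± 0.09, edgeR adjusted p = 0.000329).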

How the results depend on the processing

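The rises of SERPINA3 and LCN2 passed under each alternative that gave a value, with 6.19 to 6.72 and 7.67 to 12.74 on the log2 scale when 1 library was left out. The highest LCN2 value came without mono-culture replicate 1, which left that group without a count and so has no bound. With 1 co-culture left out, both genes were below the level filter and had no value. Counts of genes moved more. Genes higher numbered 1366 at the unadjusted p, 291 without a filter, 786 with DESeq2, 1144 with the 5 C4-2B libraries alone, 228 with RANKL mono-cultures as control, 172 on scaled TPM (edgeR) and 120 to 1416 with 1 library left out. Genes lower numbered 1475 at the unadjusted p, 935 by library total, 1234 with 5 libraries, 144 with the RANKL control, 208 on scaled TPM and 149 to 1353 with 1 left out. Over 2-fold, genes higher were 158 at the unadjusted p, 38 at a minimum of 100 counts, 57 on scaled TPM and 35 to 130 with 1 left out, and genes lower 133, 116 with 5 libraries and 40 to 102. Differences from C4-2 numbered 741 at the unadjusted p, 10 without a filter, 79 with DESeq2, 204 with the RANKL control, 10 with thinned mono-cultures, 0 on scaled TPM (634 at an unadjusted p under 0.05), 16 with the replicate block and 2 to 115 with 1 left out. Differences from DU145 numbered 3865, 2034 with DESeq2, 227 on scaled TPM and 391 to 825, and from 22Rv1 2428, 1066, 197, 443 with the RANKL control and 333 to 2223. With the replicate block, genes higher were 413 and lower 441. The largest values with 1 library left out came from leaving out replicate 2 of DU145 with MG63 cells, chosen after seeing the data.

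Of the other results named, calls were lost without a change of sign in 46 of 102 with RANKL mono-cultures as control, in 42 of 93 on scaled TPM and in 80 of 584 with 1 library left out, and 20 changed sign with RANKL mono-cultures as control, at log2 fold changes of ASB2 0.78, BNIP3 0.19, CAMKK2 0.24, CD59 -0.062, GDF15 0.49, IGFBP3 -0.74, KLK2 0.39, KLK3 0.26, MYBL2 -0.014, PIP -0.062, PLA2G4D 0.96, PMEPA1 0.13, PPFIA4 0.23, STC2 0.44, TGFBR3 -0.053, TMPRSS2 0.19, VEGFA 0.63, VLDLR 0.34, and at differences of 0.043 for FAM162A against DU145 and 0.21 for HMOX1 against C4-2. The causes were not tested. The depth of the co-cultures, of which 3 counts equal 0.219 CPM, limits statements on genes under 1 CPM, and 2 co-cultures limit all tests.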
